A study of Mus musculus with 7 samples.

Results

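The genes described here are 31 genes of the bone morphogenetic protein (BMP) and transforming growth factor beta (TGF-beta) pathway, chosen by name as its ligands, antagonists, latent complex proteins, receptors, inhibitory Smads and target genes. Of the 31, 30 were named by at least 1 probe set that names no other gene, out of 18193 such genes on the array, and Bmp3 was not analysed here. The 30 genes had 63 probe sets. The probe set with the highest mean over the 7 arrays stood for each gene.

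RNA of bladders from male FVB/N mice was hybridized to 1-colour Affymetrix mouse 430 arrays after 2 rounds of amplification. The 3 groups were adult bladder (3 arrays, Theiler stage 28, stored in liquid nitrogen), P1 bladder (3 arrays, postnatal day 1, Theiler stage 27, stored in a freezer) and whole newborn (1 array, postnatal day 1). Mice of both bladder groups carried the SMGA/EGFP transgene, in which the promoter of smooth muscle gamma-actin, Actg2, drives enhanced green fluorescent protein; the bladder was dissected whole, so its RNA mixes urothelium, muscle and connective tissue. The whole newborn array was made from a pool of 4 male and 4 female wild-type FVB/N mice, and its title speaks of bladders while its source and protocol speak of whole animals. Stage and storage cannot be told apart. Nothing in the labels says more of the 3 arrays of a stage than that they are separate samples that were not pooled, and p-values therefore cover only the spread between these samples.

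Ligands of this family bind pairs of type I and type II serine/threonine kinase receptors, which phosphorylate receptor Smads that enter the nucleus with Smad4. Id genes are classical targets of the BMP branch, Tgfbi is a target of the TGF-beta branch, and Smad6 and Smad7 are induced by the signal and dampen it. In the bladder the pathway is known for the differentiation of smooth muscle around the urothelium and for the build-up of connective tissue.

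Median intensities lay between 226.1 and 311.7 on the adult arrays, between 208.8 and 290.2 on the P1 arrays and at 434.1 on the whole newborn array. All 8 smooth muscle markers and all 8 urothelial markers lay above the array median on every bladder array. The summed intensity of the smooth muscle markers was 241382 to 387593 in adult bladder, 245824 to 326681 in P1 bladder and 70336 in the whole newborn. Across probe sets, the log2 values of adult replicate 2 correlated with those of the other adult arrays at r = 0.931 and 0.936, those of adult replicates 1 and 3 with each other at 0.971, and those of the P1 arrays with each other at 0.934 to 0.948. Adult replicate 2 differed from the other adult arrays in its marker levels. Markers of male accessory glands summed to 10434, 430 and 10361 in adult replicates 1 to 3, 286 to 492 in P1 bladder and 1225 in the whole newborn. Of the sum in the whole newborn, 774 came from Spink1, which read 57.2 to 146 on the adult arrays. Hybridization spike-ins, relative to the array with the lowest level, stood at 2.35 in adult replicate 2 and at 1.68 in P1 replicate 3, at 1.0 to 1.41 on the other bladder arrays, and at 1.82 on the whole newborn array. Some marker lists moved with stage in this bulk tissue, where fewer cells of a type and less RNA per cell cannot be told apart. All 4 measured markers of dividing cells were called lower in adult bladder (summed intensity 1268 to 1637 in adult and 17272 to 34667 in P1), as were 6 of 6 tested markers of skeletal muscle (17442 to 18255 in adult and 74956 to 111313 in P1). Acta1 made up most of the adult sum of skeletal muscle, at 15073 to 16692. The adult mean of single muscle markers ranged from 0.00195 of the P1 mean for Myh3 to 0.281 for Acta1. Of 4 tested leukocyte markers, 2 were called higher in adult bladder (16543 to 33696 in adult and 4854 to 8762 in P1). Fibroblast and neuron markers gave 1 lower call each (of 5 and 4 tested), and of 2 adipocyte markers 1 was called higher and 1 lower.

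Of the 30 measured pathway genes, 22 lay above the array median on all 7 arrays. Nog, an extracellular antagonist of BMPs, lay below it on all 7, at 69.6, 124 and 11.6 in adult bladder, 23.0, 21.7 and 83.3 in P1 bladder and 15.8 in the whole newborn. Tgfb1 and Gdf11 lay above it on 1 bladder array each. The test of adult against P1 bladder used genes above the array median on at least 3 of the 6 bladder arrays, which kept 27 of the 30 and left out Nog, Tgfb1 and Gdf11. Intensities of different probe sets are not levels per length, so genes were not ranked by them.

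**Figure D1:**
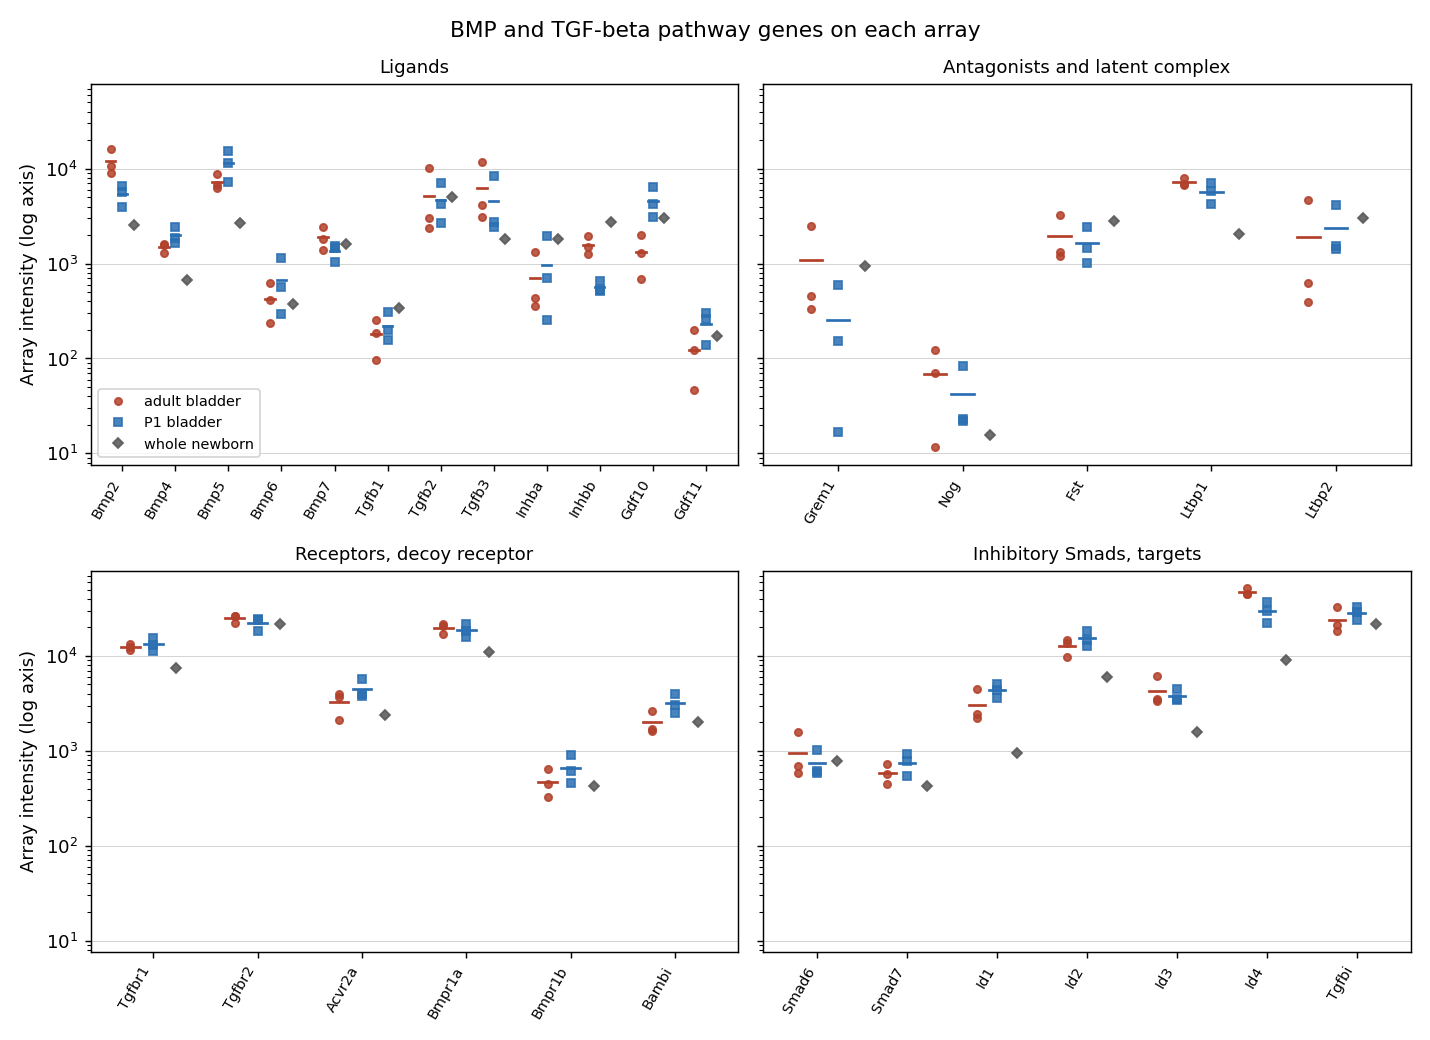
Intensity of the 30 measured pathway genes on each array (log axis), by role, with adult bladder left of P1 bladder and the whole newborn at the right of each gene. Points are single arrays and horizontal lines are means of the 3 arrays of a stage; the adult and P1 points of Bmp2, Inhbb, Id4, Bmp4 and Gdf10 do not overlap, and those of the other 25 genes do.

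On the probe sets that stood for the genes, 3 pathway genes passed the test between adult and P1 bladder, all of them among the 10 tested ligands. None of the 3 calls held under all alternatives, and no difference between roles was tested. Bmp2, a BMP ligand, and Inhbb, which encodes the beta B subunit of activins and inhibins, were higher in adult bladder, at 2.2-fold and 2.81-fold the mean P1 intensity. Gdf10, a ligand also known as BMP3b, was lower, at 0.289 of the mean P1 intensity. By limma's test on log2(intensity + 49), with p-values adjusted by Benjamini-Hochberg over all probe sets tested and a threshold of 0.05, 2 of the 27 tested genes were thus called higher and 1 lower. Over all 11930 genes tested, 4.02% were called higher and 4.95% lower. The median log2 difference, adult minus P1, was -0.07 over the 27 genes and -0.01 over all genes, and 12 of the 27 differences were positive. All adult arrays lay above all P1 arrays in 3 of the 27 genes (Bmp2, Inhbb and Id4) and in 15.8% of all genes tested. All adult arrays lay below all P1 arrays in 2 of them (Bmp4 and Gdf10) and in 16.5% of all genes tested. In all, 11.1% of the 27 genes and 8.97% of all genes passed the test, shares of a similar size.

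In the order of replicates 1 to 3, which holds throughout, Bmp2 had 10645, 16007 and 9123 in adult bladder, against 3996, 5700 and 6541 in P1 bladder. The lowest adult array lay above the highest P1 array. The means were 11930 ± 3620 in adult and 5412 ± 1300 in P1 bladder (SD, n = 3 each), with a log2 difference of 1.12 (SE 0.29; limma, adjusted p = 0.0498). This call sat at the threshold: leaving out any 1 of the 6 arrays ended it, with adjusted p between 0.0594 and 0.139, while the difference kept its sign in all 18 alternatives and ranged between 0.89 and 1.59. Inhbb had 1258, 1972 and 1503 in adult bladder, against 509, 523 and 655 in P1 bladder. All 3 adult arrays lay above all 3 P1 arrays, and the P1 arrays lay close together. The means were 1577 ± 363 in adult and 562.1 ± 80.7 in P1 bladder (SD, n = 3 each), with a log2 difference of 1.40 (SE 0.31; limma, adjusted p = 0.0272). The call ended without adult replicate 1 (adjusted p = 0.0631), without adult replicate 3 (0.107), without P1 replicate 1 (0.0772) or without P1 replicate 2 (0.0798). Gdf10 had 1302, 680 and 1998 in adult bladder, against 6463, 3104 and 4228 in P1 bladder. Every adult array lay below every P1 array. The means were 1327 ± 659 in adult and 4598 ± 1710 in P1 bladder (SD, n = 3 each), with a log2 difference of -1.81 (SE 0.42; limma, adjusted p = 0.0338). The call ended without adult replicate 1 (0.0886), adult replicate 2 (0.0513), P1 replicate 1 (0.107), P1 replicate 2 (0.0503) or P1 replicate 3 (0.0692).

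Adult replicate 2 carried few accessory gland transcripts, unlike the other adult arrays. With it as the only adult array, the log2 differences were 1.59 for Bmp2 (adjusted p = 0.108), 1.73 for Inhbb (0.127) and -2.61 for Gdf10 (0.0622), each with the sign of the full comparison and past the threshold for none of the 3. In that fit the lone adult array was assumed to vary like the P1 arrays. Without adult replicate 2 the differences were 0.89 (adjusted p = 0.0776), 1.23 (0.045) and -1.42 (0.0513) for Bmp2, Inhbb and Gdf10. The part of the gland transcripts and of dividing, muscle and blood cells in these differences was not tested.

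The windows of 250 bases before the transcription start of Gdf10 (chr14:33923337-33923586, plus strand), Inhbb (chr1:119422249-119422498, minus strand) and Bmp5 (chr9:75775115-75775364, plus strand) are shown because these ligands passed the test in at least 1 comparison. They are RefSeq sequences on GRCm38.p6, written 5′ to 3′ on the strand of the gene. Capitals mark CAGAC or its reverse complement GTCTG, the short element that Smad3 and Smad4 are known to bind, and GGCGCC, a palindrome that BMP-activated Smads are known to bind; none of these 3 windows holds GGCGCC.
Gdf10: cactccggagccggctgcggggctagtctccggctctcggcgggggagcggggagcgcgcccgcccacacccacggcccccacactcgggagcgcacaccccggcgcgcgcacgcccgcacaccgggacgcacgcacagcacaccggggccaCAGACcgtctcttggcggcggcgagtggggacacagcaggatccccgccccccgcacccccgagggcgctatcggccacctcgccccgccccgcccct
Inhbb: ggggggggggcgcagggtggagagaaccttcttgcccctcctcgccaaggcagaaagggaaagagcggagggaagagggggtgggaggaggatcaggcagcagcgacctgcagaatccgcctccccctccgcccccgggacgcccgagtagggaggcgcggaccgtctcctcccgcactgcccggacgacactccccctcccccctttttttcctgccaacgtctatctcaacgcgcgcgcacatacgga
Bmp5: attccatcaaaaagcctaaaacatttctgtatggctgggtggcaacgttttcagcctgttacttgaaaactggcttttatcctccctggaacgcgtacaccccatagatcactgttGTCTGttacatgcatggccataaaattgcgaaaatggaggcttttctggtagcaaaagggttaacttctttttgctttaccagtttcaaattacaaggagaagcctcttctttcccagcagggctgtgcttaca
Gdf10 and Bmp5 hold 1 copy of CAGAC each, 98 and 134 bases before the start, and Inhbb holds none. Promoter windows were given for 22 of the 30 genes, with 26 windows in all. Bmp2, a ligand that also passed the test, was among the genes without a window. CAGAC on either strand was found in 15 of these 26 windows (57.7%), against 42.2% of 32851 mouse promoter windows of the same length. A match is a run of letters and not a measured site.

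The other BMP ligands did not pass the test between stages. Bmp4, which acts in the mesenchyme of many developing organs, had 1609, 1575 and 1297 in adult bladder, against 1849, 1662 and 2447 in P1 bladder. The groups did not overlap, but the gap between them was small beside the spread of the P1 arrays (log2 difference -0.39, SE 0.28; limma, adjusted p = 0.457). Bmp5 had 8866, 6733 and 6271 in adult bladder, against 7244, 15405 and 11518 in P1 bladder (log2 difference -0.59, SE 0.31; limma, adjusted p = 0.283). Its groups overlapped through P1 replicate 1. Bmp7, a ligand made by many epithelia, had 2461, 1405 and 1805 in adult bladder, against 1472, 1521 and 1052 in P1 bladder (log2 difference 0.45, SE 0.32; limma, adjusted p = 0.434). Bmp6 was dim, at 234 to 629 in adult and 294 to 1159 in P1 bladder, and its groups overlapped.

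On the probe sets that stood for them, Tgfb2 and Tgfb3, ligands of the TGF-beta branch, differed more between arrays of a stage than between stages. Another probe set of Tgfb2, described below, read otherwise. Tgfb3 had 3079, 11711 and 4122 in adult bladder, against 2734, 8444 and 2417 in P1 bladder. Adult replicate 2 and P1 replicate 2 lay well above the others (log2 difference 0.47, SE 0.58; limma, adjusted p = 0.683). Tgfb2 had 2387, 10199 and 3045 in adult bladder, against 4265, 2700 and 7138 in P1 bladder, and again adult replicate 2 was the highest array (log2 difference -0.05, SE 0.55; limma, adjusted p = 0.97). Tgfb1 was dim on its brightest probe set, at 96.5 to 257 in adult and 157 to 309 in P1 bladder, and was not tested between stages. Gdf11 was also dim, at 46.3 to 198 in adult and 139 to 304 in P1 bladder. Inhba, the beta A subunit, had 439, 1325 and 354 in adult bladder, against 255, 700 and 1963 in P1 bladder. Its arrays overlapped widely (log2 difference -0.25, SE 0.70; limma, adjusted p = 0.868), and the 2 highest were adult replicate 2 and P1 replicate 3.

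The extracellular antagonists and the latent complex proteins gave no call between stages in limma, and on the probe sets that stood for the genes none had an unadjusted p under 0.05. Grem1, which binds and blocks BMPs, had 458, 2519 and 331 in adult bladder, against 154, 17.0 and 590 in P1 bladder. The difference of 1.95 on the log2 scale had an SE of 0.90 (limma, adjusted p = 0.23). Fst, which binds activins, had 1330, 3284 and 1190 in adult bladder, against 1470, 2430 and 1014 in P1 bladder (log2 difference 0.17, SE 0.46; limma, adjusted p = 0.865). Ltbp1, which holds latent TGF-beta in the matrix, was even across arrays, at 8046, 6819 and 6866 in adult bladder, against 5802, 7004 and 4260 in P1 bladder (log2 difference 0.37, SE 0.26; limma, adjusted p = 0.433). Ltbp2, a related matrix protein that does not bind latent TGF-beta, had 394, 4711 and 624 in adult bladder, against 4188, 1551 and 1437 in P1 bladder. Adult replicates 1 and 3 lay below every P1 array and adult replicate 2 above them all. With all arrays the log2 difference of Ltbp2 was -0.94 (SE 0.81; limma, adjusted p = 0.533). Without adult replicate 2 it was -1.98 (adjusted p = 0.0457), and with adult replicate 2 as the only adult array it was 1.14 (adjusted p = 0.41).

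None of the 6 receptors passed the test between stages, and none had an unadjusted p under 0.05 in limma on the probe set that stood for it. Tgfbr2, the type II receptor for TGF-beta, had 26217, 26585 and 22209 in adult bladder, against 24223, 23934 and 18148 in P1 bladder (log2 difference 0.19, SE 0.20; limma, adjusted p = 0.63). Tgfbr1, its type I partner, had 13364, 11665 and 12404 in adult bladder, against 11168, 15506 and 13007 in P1 bladder (log2 difference -0.07, SE 0.21; limma, adjusted p = 0.877). Bmpr1a, a type I receptor for BMPs, had 21720, 16842 and 20456 in adult bladder, against 18428, 21513 and 15890 in P1 bladder (log2 difference 0.08, SE 0.21; limma, adjusted p = 0.856). The stages overlapped in all 3. Acvr2a, a type II receptor for activins, had 3963, 2116 and 3680 in adult bladder, against 5653, 3965 and 3772 in P1 bladder, with adult replicate 1 inside the P1 range (log2 difference -0.48, SE 0.32; limma, adjusted p = 0.413). Bmpr1b, another type I receptor for BMPs, was dim, at 329 to 643 in adult and 458 to 901 in P1 bladder. Bambi, a pseudoreceptor without a kinase, had 1683, 2656 and 1624 in adult bladder, against 3061, 2514 and 3960 in P1 bladder. Adult replicate 2 lay inside the P1 range, and the difference of -0.68 on the log2 scale (SE 0.31) missed the threshold (limma, adjusted p = 0.224).

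None of the 7 inhibitory Smads and target genes passed the test between stages in limma, and 1 of them had an unadjusted p under 0.05. That gene was Id4, an inhibitor of basic helix-loop-helix transcription factors, with 45093, 51847 and 44808 in adult bladder, against 29416, 37016 and 22302 in P1 bladder. Its groups did not overlap (log2 difference 0.70, SE 0.21; limma, adjusted p = 0.0791). Id1 had 2239, 4461 and 2453 in adult bladder, against 3610, 4325 and 5111 in P1 bladder (log2 difference -0.56, SE 0.32; limma, adjusted p = 0.336). Only adult replicate 2 reached the P1 range. Id2 had 14836, 9665 and 13616 in adult bladder, against 12732, 14851 and 18506 in P1 bladder, and Id3 had 3497, 6074 and 3351, against 3394, 3498 and 4499. Both overlapped between stages, with log2 differences of -0.28 for Id2 (SE 0.25) and 0.14 for Id3 (SE 0.30). Smad6, at 580 to 1591 in adult and 588 to 1020 in P1 bladder, and Smad7, at 448 to 734 in adult and 545 to 914 in P1 bladder, also overlapped. Tgfbi, an extracellular matrix protein induced by TGF-beta, had 18490, 32541 and 21270 in adult bladder, against 32593, 29311 and 23672 in P1 bladder (log2 difference -0.27, SE 0.25; limma, adjusted p = 0.559).

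**Figure D2:**
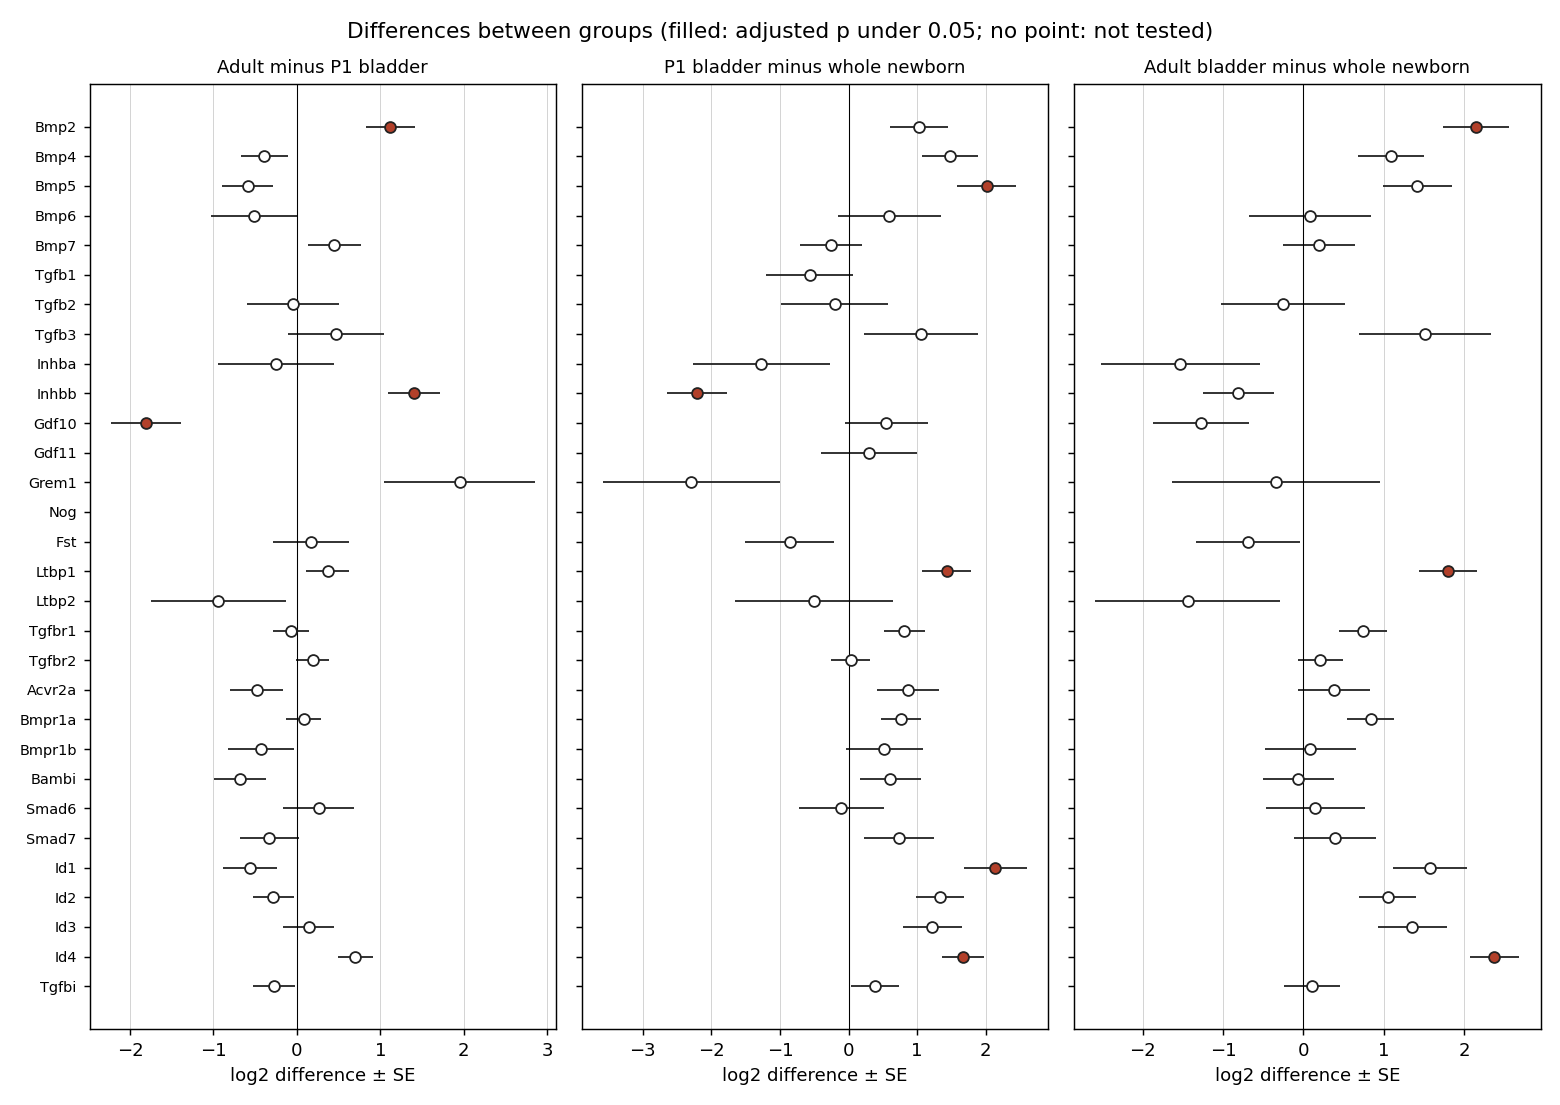
Log2 difference of intensity + 49 (horizontal axis, with SE) for each measured gene in the 3 comparisons; filled points passed the test and genes without a point were not tested. Gdf10, Bmp2 and Inhbb are filled between stages. Points right of 0 in both comparisons with the whole newborn are those of Bmp2, Bmp4, Bmp5, Bmp6, Tgfb3, Ltbp1, Tgfbr1, Tgfbr2, Acvr2a, Bmpr1a, Bmpr1b, Smad7, Id1 to Id4 and Tgfbi.

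Adult replicate 2 was high for several pathway genes. Its intensity was at least 2-fold the mean of adult replicates 1 and 3 in 7 of the 27 tested genes (25.9%), against 8.53% of all genes tested. The 7 were Ltbp2 (9.26-fold), Grem1 (6.38-fold), Tgfb2 (3.76-fold), Inhba (3.34-fold), Tgfb3 (3.25-fold), Fst (2.61-fold) and Smad6 (2.51-fold). Gdf10 was the reverse, at 0.412 of that mean. The median ratio was 1.44 over the 27 genes and 0.961 over all genes tested. P1 replicate 3 was at least 2-fold above the mean of P1 replicates 1 and 2 in 3 of the 27 tested genes, against 4.33% of all genes tested. These were Grem1 (6.88-fold), Inhba (4.11-fold) and Tgfb2 (2.05-fold). Adult replicate 2 and P1 replicate 3 were the arrays with the highest spike-in level of their stage. The summed leukocyte markers were 33696 in adult replicate 2, against 16543 and 19779 on the other adult arrays, and the summed fibroblast markers were 144733, against 102529 and 94004. Smooth muscle markers summed to 387593, against 241382 and 242619, and neuron markers to 724, against 3871 and 3778. The part of the spike-in level, of the marker levels and of the gland transcripts in this pattern was not tested.

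**Figure D3:**
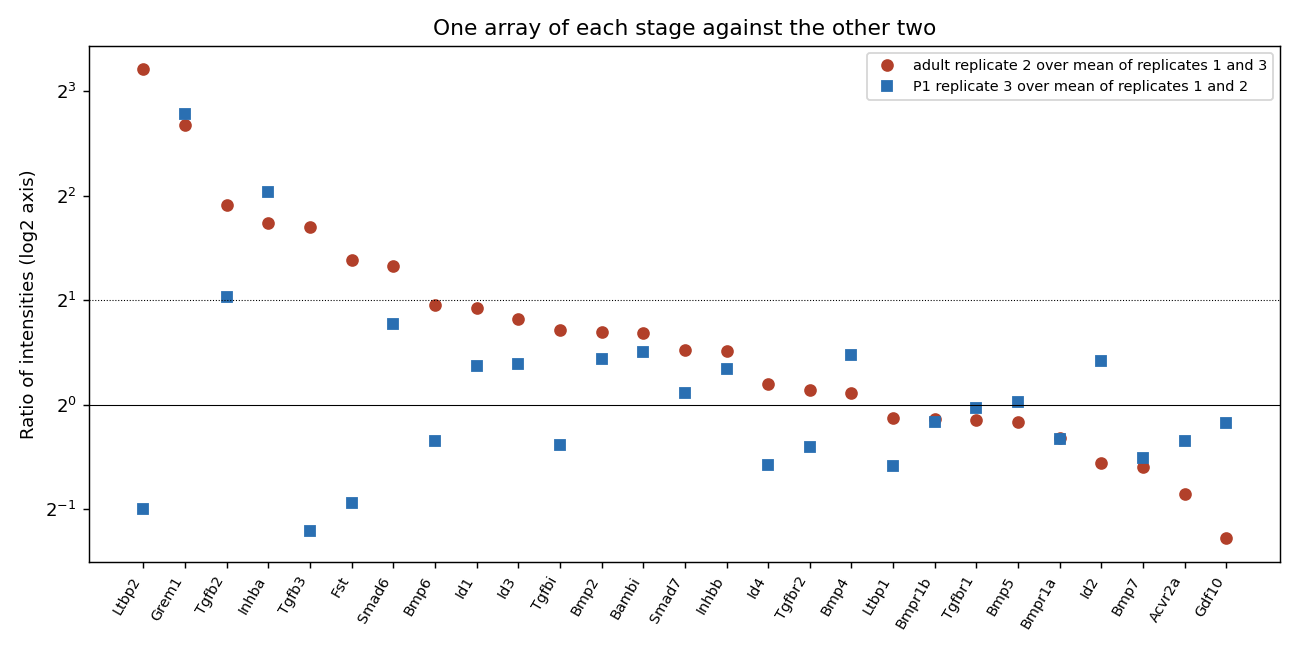
Ratio of intensities (log2 axis) of adult replicate 2 to the mean of adult replicates 1 and 3 (circles) and of P1 replicate 3 to the mean of P1 replicates 1 and 2 (squares), for the 27 tested genes ordered by the adult ratio. The dotted line marks 2-fold; 7 circles and 3 squares lie above it.

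Of the 30 genes, 17 had more than 1 probe set, and the probe sets of some genes gave different readings. Tgfb2 was such a gene. Probe set 1450922_a_at had 3118, 1942 and 1784 in adult bladder, against 6290, 6692 and 5086 in P1 bladder and 1591 in the whole newborn. On that probe set the groups did not overlap and Tgfb2 was lower in adult bladder (log2 difference -1.42; limma, adjusted p = 0.0205), whereas on the brighter probe set 1450923_at the difference was -0.05. The dim probe set 1438303_at read 295 to 453 in adult and 461 to 642 in P1 bladder, with no overlap and a log2 difference of -0.47 that did not pass the test. Probe set 1423250_a_at of Tgfb2 had the same high array as 1450923_at, where adult replicate 2 read 5536, against 1106 and 987 on the other adult arrays. Inhbb had another, dim probe set, 1426859_at, at 223 to 256 in adult and 191 to 499 in P1 bladder, which did not pass the test (log2 difference -0.19; limma, adjusted p = 0.845). With the mean of both probe sets the difference of Inhbb was 0.60 (adjusted p = 0.187). Another bright probe set of Id4, 1423259_at, had 30569, 22019 and 25735 in adult bladder, against 25918, 30819 and 21410 in P1 bladder, and its stage difference was 0.01 on the log2 scale. Bmp5 was likewise even on probe set 1455851_at, at 7453, 7040 and 7285 in adult bladder, against 5823, 7306 and 7650 in P1 bladder. Bmpr1a had 6 probe sets; on 1425493_at adult replicate 2 read 12075, against 4395 and 4670 on the other adult arrays, and P1 replicate 3 read 9752, against 2782 and 2156 on the other P1 arrays, while its brightest probe set showed no such arrays. In all, 24 of the 33 other probe sets of these genes were tested between stages; 1450922_a_at of Tgfb2 was the 1 that passed in limma, and 3 more had an unadjusted p under 0.05. Fst on 1421365_at had 345, 2416 and 544 in adult bladder, against 178, 286 and 283 in P1 bladder (log2 difference 1.5; limma, adjusted p = 0.183), with no overlap between stages. Acvr2a on 1451004_at had 559, 769 and 938 in adult bladder, against 1690, 1967 and 895 in P1 bladder (log2 difference -0.92; limma, adjusted p = 0.174). Tgfbr1 on 1420893_a_at had 2967, 7081 and 3337 in adult bladder, against 7197, 5999 and 8941 in P1 bladder (log2 difference -0.81; limma, adjusted p = 0.2). In both receptors 1 array of each stage overlapped with the other stage.

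**Figure D4:**
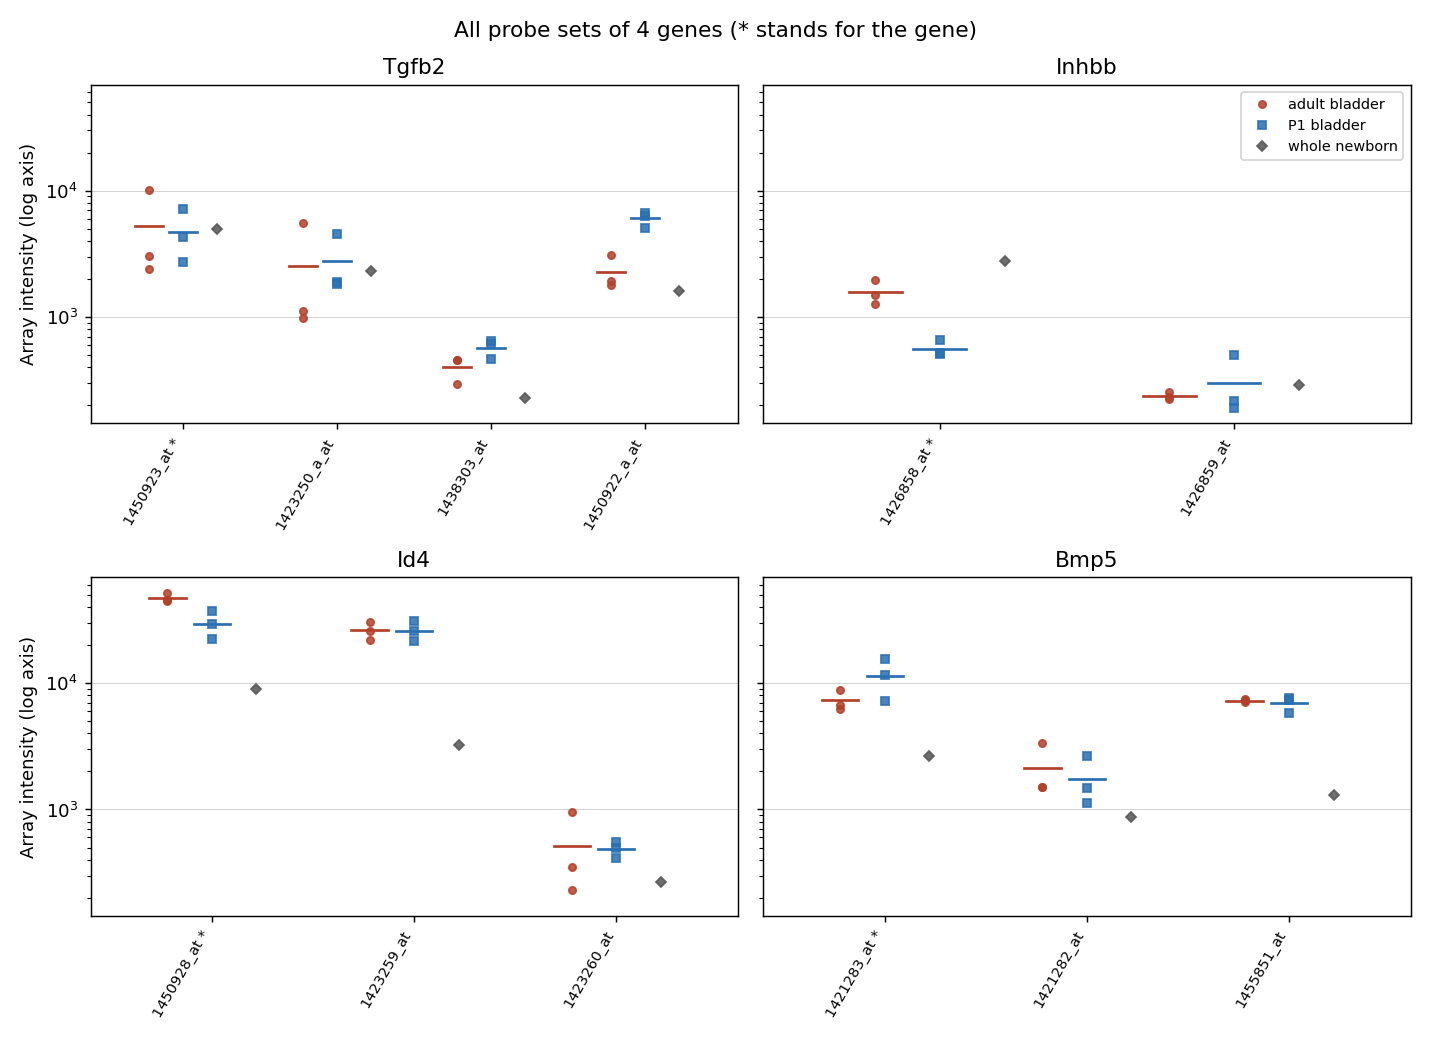
Intensity (log axis) of all probe sets of Tgfb2, Inhbb, Id4 and Bmp5 on each array, adult bladder left of P1 bladder and whole newborn; an asterisk marks the probe set that stood for the gene. Among the 4 probe sets of Tgfb2, 1450922_a_at and, by a small margin, 1438303_at have all adult points below all P1 points, and both bright probe sets of Id4 and of Bmp5 have all bladder points above the whole newborn.

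The comparison with the whole newborn set the bladder against the body as a whole. Sex and transgene differed along with tissue, and for adult bladder age did too, so these cannot be told apart. On the probe sets that stood for the genes, Id4 and Ltbp1 passed the test as higher than the whole newborn in both stages. Id1 and Bmp5 passed in P1 bladder and missed the threshold in adult bladder (limma, adjusted p = 0.0565 and 0.0676). Bmp2 passed in adult bladder and missed it in P1 bladder (limma, adjusted p = 0.179). On another bright probe set, 1455851_at, Bmp5 passed in both stages. Inhbb was lower in P1 bladder, on the brighter of its 2 probe sets. P1 and adult bladder were each set against the same single newborn array, so the comparisons share it, its own spread was not measured, and it was assumed to vary like the bladder arrays. All 6 bladder arrays lay above the newborn array in 12 of the 30 measured genes: Bmp2, Bmp4, Bmp5, Tgfb3, Ltbp1, Tgfbr1, Bmpr1a, Smad7, Id1, Id2, Id3 and Id4. All 12 were among the 27 genes tested between stages (44.4%), where 24.9% of all genes tested lay above in this way. All 6 lay below it in Inhbb and in the dim Tgfb1, which was not tested between stages. Of the 27 genes tested between stages 1 thus lay below, beside 18.3% of all genes tested between stages. The filter behind these shares read the bladder arrays alone, which favours genes bright in bladder and left out Tgfb1. All of these counts rest on the single newborn array.

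In P1 bladder 4 of 29 tested genes passed the test as higher than the whole newborn and 1 as lower, while 3.19% of all 13745 genes tested were called higher and 6.39% lower. Bmp5 had 7244, 15405 and 11518 in P1 bladder, against 2662 in the whole newborn (4.28-fold; log2 difference 2.01, SE 0.43; limma, adjusted p = 0.0256). Id1 had 3610, 4325 and 5111, against 940 (4.62-fold; log2 difference 2.14, SE 0.46; limma, adjusted p = 0.0248). Id4 had 29416, 37016 and 22302, against 9039 (3.27-fold; log2 difference 1.67, SE 0.31; limma, adjusted p = 0.0136). These 3 were above the newborn array on every P1 array. Ltbp1 had 5802, 7004 and 4260, against 2035 (2.8-fold; log2 difference 1.43, SE 0.36; limma, adjusted p = 0.0471); without P1 replicate 2 Id4 was the only gene called higher. Inhbb had 509, 523 and 655, against 2760 in the whole newborn, which is 0.204 of the newborn level (log2 difference -2.21, SE 0.44; limma, adjusted p = 0.0179). The log2 differences of Id2 (1.33, adjusted p = 0.0524), Bmp4 (1.48, 0.0627), Id3 (1.22, 0.125) and Bmp2 (1.03, 0.179) missed the threshold in limma. All 6 receptors had positive differences, between 0.03 for Tgfbr2 and 0.86 for Acvr2a, and none passed the test in limma on the probe set that stood for it, with 2 at an unadjusted p under 0.05 (Tgfbr1 and Bmpr1a).

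In adult bladder 3 of 27 tested genes passed the test as higher than the whole newborn and 0 as lower, while 6.1% of all 13504 genes tested were called higher and 9.23% lower. In limma, 0 of the 27 had a negative difference with an unadjusted p under 0.05 as well. Without adult replicate 2, 6 genes were called higher, and Ltbp2 was called lower. Id4 had 45093, 51847 and 44808 in adult bladder, against 9039 in the whole newborn (5.23-fold; log2 difference 2.38, SE 0.31; limma, adjusted p = 0.00191). Bmp2 had 10645, 16007 and 9123, against 2571 (4.64-fold; log2 difference 2.15, SE 0.41; limma, adjusted p = 0.0118). Ltbp1 had 8046, 6819 and 6866, against 2035 (3.56-fold; log2 difference 1.80, SE 0.36; limma, adjusted p = 0.0139). In all 3 genes the lowest adult array lay above the newborn array. The log2 differences of Id1 (1.58, adjusted p = 0.0565), Bmp5 (1.42, 0.0676), Id3 (1.36, 0.0739) and Id2 (1.05, 0.0878) missed the threshold in limma. Inhbb, at 1258 to 1972, was not called against the newborn level (log2 difference -0.81, SE 0.44; limma, adjusted p = 0.284), nor was Gdf10 (-1.27, SE 0.60; adjusted p = 0.22).

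The roles were then summarised, with no test of a difference between them. Over the 7 inhibitory Smads and target genes the median log2 difference was 1.05 in adult bladder (7 of 7 positive) and 1.22 in P1 bladder (6 of 7 positive). Over the 6 receptors it was 0.30 in adult bladder (5 of 6 positive) and 0.68 in P1 bladder (6 of 6 positive). Over the ligands it was 0.14 in adult bladder and 0.43 in P1 bladder, over the 2 latent complex proteins 0.18 and 0.46, and over the 2 tested antagonists -0.52 and -1.58. A separate list of common target genes of the pathway, which are not among the 31, had medians of 0.07 in adult bladder (6 of 11 positive; 1 called higher and 2 lower) and 0.06 in P1 bladder (6 of 11 positive). Over all tested members it was 0.21 in adult bladder (19 of 27 positive) and 0.59 in P1 bladder (20 of 29 positive), beside -0.028 and -0.0031 over all genes tested. Centring each array on its median moved the median over all genes to 0.6405 for adult bladder and to 0.6796 for P1 bladder, and raised the members along with it. Relative to that shift the differences of Id4, for instance, which read 3.04 for adult bladder and 2.36 for P1 bladder after centring, were little changed. Inhbb lost its call in P1 bladder under centring (log2 difference -1.53, adjusted p = 0.0613). The whole newborn also carried far more of other tissues. Skeletal muscle markers summed to 17442 to 18255 in adult bladder, 74956 to 111313 in P1 bladder and 364452 in the whole newborn, and cartilage and bone markers to 307 to 765 in adult bladder, 620 to 1172 in P1 bladder and 37192 in the whole newborn. The part of this mixture in the differences was not tested.

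Other probe sets of these genes did not all read alike. Id4 on 1423259_at stood at 3229 in the whole newborn, with log2 differences of 2.98 for adult bladder (limma, adjusted p = 0.000714) and 2.98 for P1 bladder (0.000921). Bmp5 on 1455851_at stood at 1301 in the whole newborn, with log2 differences of 2.44 for adult bladder (limma, adjusted p = 0.00185) and 2.36 for P1 bladder (0.00302). Both bright probe sets of each gene were thus above the newborn array on all bladder arrays. The dim Inhbb probe set 1426859_at had 216, 499 and 191 in P1 bladder, against 290 in the whole newborn (log2 difference -0.05). Id2 on 1422537_a_at had log2 differences of 0.20 for adult bladder and 0.02 for P1 bladder. On 1453596_at they were 0.87 and 0.29. On both of these Id2 probe sets the bladder arrays lay on either side of the newborn array. Tgfb2 on 1450922_a_at was higher in P1 bladder than in the whole newborn (log2 difference 1.88; limma, adjusted p = 0.0272), while on 1450923_at its difference was -0.20. Bmpr1a on 1425494_s_at had 4674, 4925 and 4189 in P1 bladder, against 1552 in the whole newborn, and passed the test (log2 difference 1.53; limma, adjusted p = 0.0442). Bmpr1a on 1451729_at pointed the other way, with 1001, 652 and 1500 in P1 bladder, against 2644 in the whole newborn (log2 difference -1.37; limma, adjusted p = 0.143). Fst on 1421365_at had a log2 difference of -2.18 between P1 bladder and the whole newborn (limma, adjusted p = 0.186).

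The call of Ltbp1 depended on its probe set. On 1419786_at, which was too dim to be tested in P1 bladder, Ltbp1 read 140, 111 and 58.8 in P1 bladder, against 366 in the whole newborn, and on 1447547_at it read 582, 293 and 269, against 127 (log2 difference 1.22; limma, adjusted p = 0.342). In adult bladder the log2 differences were -0.76 on 1419786_at (limma, adjusted p = 0.565) and 2.01 on 1447547_at (0.099). With the mean of its probe sets the difference of Ltbp1 was 1.02 for adult bladder (adjusted p = 0.143) and 0.39 for P1 bladder (0.648), and neither passed the test. Ltbp1 was called in 15 of 16 alternatives for adult bladder and in 8 of 16 for P1 bladder.

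The promoter windows of Id2 (chr12:25096093-25096342, minus strand), Id3 (chr4:136143572-136143821, plus strand) and Id4 (chr13:48260866-48261115, plus strand) are shown. On the probe set that stood for each, these targets lay above the newborn array on every bladder array. Id1 did so too, but no window was given for it. The windows are RefSeq sequences on GRCm38.p6 of 250 bases before the start, and capitals mark the same motifs.
Id2: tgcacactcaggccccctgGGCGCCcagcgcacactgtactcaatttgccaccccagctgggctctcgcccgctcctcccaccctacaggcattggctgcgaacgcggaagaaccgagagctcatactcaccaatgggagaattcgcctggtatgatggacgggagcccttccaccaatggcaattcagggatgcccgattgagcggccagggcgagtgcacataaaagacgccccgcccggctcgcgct
Id3: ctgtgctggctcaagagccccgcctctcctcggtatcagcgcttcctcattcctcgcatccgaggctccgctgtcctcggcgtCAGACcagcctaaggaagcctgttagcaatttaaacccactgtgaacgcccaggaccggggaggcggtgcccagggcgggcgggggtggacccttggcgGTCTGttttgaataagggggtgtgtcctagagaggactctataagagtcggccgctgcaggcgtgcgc
Id4: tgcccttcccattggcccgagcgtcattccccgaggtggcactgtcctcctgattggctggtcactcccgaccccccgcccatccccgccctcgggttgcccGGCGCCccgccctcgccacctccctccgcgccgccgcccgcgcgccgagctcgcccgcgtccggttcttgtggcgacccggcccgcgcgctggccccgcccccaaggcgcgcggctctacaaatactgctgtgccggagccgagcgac
Id2 holds 1 GGCGCC 231 bases before the start, Id4 holds 1 at 148 bases, and Id3 holds CAGAC at 167 bases and its reverse complement at 68 bases. None of the 6 windows printed holds both motifs. GGCGCC was found in 6 of the 26 member windows (23.1%), those of Bmpr1a, Grem1, Id2, Id4, Tgfbi and Tgfbr1, and in 9.59% of the 32851 mouse windows. GC content was 75.6% in the Id4 window and 62.8% in the Id2 window.

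A list of 96 other genes of the pathway, of which 86 had a probe set and 62 were tested between stages, gave 3 genes higher and 2 lower in adult bladder (8.06%, against 8.97% over all genes), with a median log2 difference of -0.03. Over the whole list 3 of 62 tested genes were thus higher, beside 4.02% of all genes tested. The 3 all came from the 13 tested antagonists and extracellular modulators. The lists were chosen with earlier results of these data known, so the count in this group is not an independent result. Over these 13 the median log2 difference was 0.07, and 7 were positive. In limma 5 more had an unadjusted p under 0.05. Of these, Kcp (-1.04), Sostdc1 (-0.95) and Fstl1 (-0.73) were lower in adult bladder, and Twsg1 (0.81) and Dcn (0.72) were higher. Chrdl1, a chordin-like BMP antagonist, had 4315, 2123 and 3859 in adult bladder, against 366, 396 and 572 in P1 bladder (7.71-fold; log2 difference 2.78, SE 0.36; limma, adjusted p = 0.00293). Its groups lay far apart, and the lowest adult array was adult replicate 2. Htra1, a secreted serine protease known to inhibit TGF-beta family signalling, had 33002, 47971 and 33419 in adult bladder, against 19388, 13939 and 13788 in P1 bladder (2.43-fold; log2 difference 1.27, SE 0.23; limma, adjusted p = 0.0121). Nbl1, a BMP antagonist of the DAN family, had 648, 1048 and 702 in adult bladder, against 292, 190 and 274 in P1 bladder (3.17-fold; log2 difference 1.48, SE 0.36; limma, adjusted p = 0.0389). In all 3 genes every adult array lay above every P1 array.

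Ccn2, a matricellular protein and common TGF-beta target, had 4922, 18824 and 4456 in adult bladder, against 49918, 49195 and 25845 in P1 bladder, which is 0.226 of the P1 mean (log2 difference -2.41, SE 0.52; limma, adjusted p = 0.0237). Adult replicate 2 was again the highest adult array, but lay below all P1 arrays. Tgif2, a repressor that binds Smads, had 701, 969 and 599 in adult bladder, against 1821, 2100 and 1709 in P1 bladder (0.403 of the P1 mean; log2 difference -1.28, SE 0.30; limma, adjusted p = 0.0342). With adult replicate 2 as the only adult array the log2 differences were 2.16 for Chrdl1 (adjusted p = 0.0955), 1.63 for Htra1 (0.0544), 1.88 for Nbl1 (0.169), -1.08 for Ccn2 (0.216) and -0.91 for Tgif2 (0.322), so none passed the threshold. Over all alternatives Chrdl1 was called in 17 of 18, Htra1 in 16 of 18, Ccn2 in 12 of 18 (log2 difference between -3.39 and -1.08), Tgif2 in 10 of 17 and Nbl1 in 8 of 17. The call of Nbl1 ended without any 1 of the 6 arrays (adjusted p between 0.0655 and 0.127). The call of Tgif2 ended without any 1 array except adult replicate 2 (0.0615 to 0.148), that of Ccn2 without adult replicate 1 or 3 or P1 replicate 1 or 2 (0.0811 to 0.0851), and that of Htra1 without P1 replicate 2 (0.0513). Of the 57 other tested genes of this list, none passed the test in limma, and 10 had an unadjusted p under 0.05. Against the whole newborn, 1 of 74 tested genes of the list was called higher and 0 lower in P1 bladder by limma, where 8 were lower at an unadjusted p under 0.05, and 3 of 71 higher and 5 lower in adult bladder.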

How the data were processed

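RNA of 7 samples was amplified in 2 rounds and hybridized to 1 array each. The deposited table holds linear intensities that the authors made with GCOS, per the submitters' processing notes, which state neither its version nor how probes were summarised. All 7 arrays had the same mean, 1500.01, once the top and bottom 2% of values were trimmed, so the authors had scaled these intensities to a common level. Of 45037 probe sets that are not controls, the platform annotation gives 1 gene for 34945, several for 932 and none for 9160, and a gene was named only from probe sets naming it alone. The number of arrays limits the precision.

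Values were analysed as log2(intensity + 49), with 49 the rounded 20th percentile of all values; fold changes in the text are ratios of mean intensities, and log2 differences are on the log2(intensity + 49) scale, which understates changes of dim genes. Groups were compared with lmFit and eBayes (with a trend, two-sided) of limma 3.58.1, run in R 4.3.3, with Benjamini-Hochberg adjustment over all probe sets tested and a threshold of 0.05. The stage fit held the 6 bladder arrays and probe sets above their array's median on at least 3. The fit against the whole newborn held 7 arrays in 3 groups and probe sets above the median on at least 1 of the 4 arrays compared. The script was tested on simulated data. Alternatives were pseudocounts at the 5th and 40th percentiles, median centring, quantile normalization, a filter at the 70th percentile or none, no trend, array weights, the mean of a gene's probe sets, all 7 arrays in 1 fit, and leaving out arrays. The members and lists were chosen with earlier results of these data known. All members were named, and of the other pathway genes those called between stages, up to 12.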

Additional observations from a re-analysis of the deposited data

How the results depend on the processing

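Between stages, the 2 pathway genes called higher became 1 with the pseudocount at the 5th percentile, with median centring, without a trend, with the mean of a gene's probe sets and with all 7 arrays in 1 fit, 0 without a filter and with adult replicate 2 as the only adult array, and 0 to 1 when single arrays were left out. The 1 gene called lower became 0 without a filter, with centring, with adult replicate 2 as the only adult array and without a trend, 4 with array weights (Bambi, Gdf10, Id1 and Ltbp2), 2 without the spike-in-rich array of each stage (Ltbp2 and Tgfbi), and 0 to 1 when single arrays were left out. For P1 bladder against the whole newborn, the 4 genes called higher became 8 with centring, 1 without a trend, 7 with array weights and 1 to 5 without single arrays; the 1 called lower became 0 with centring and with the mean of probe sets, and 2 without the spike-in-rich arrays. For adult bladder against the whole newborn, the 3 called higher became 9 with centring, 5 with quantile normalization, 10 with array weights, 5 with the mean of probe sets, 7 without the spike-in-rich arrays and 3 to 6 without single arrays; the 0 called lower became 1 with array weights, 1 without the spike-in-rich arrays and 0 to 1 without single arrays. The causes were not tested. Over all genes, centring gave 1059 higher and 570 lower calls for P1 bladder against the whole newborn, in place of 439 and 878, and 1689 higher and 824 lower for adult bladder, in place of 824 and 1247; between stages it gave 305 and 454 in place of 479 and 591, and array weights gave 1351 and 1254. Of 801 values of single genes or probe sets under the alternatives, 681 kept their direction and side of the threshold, 29 changed sign without a call on either side (Fst and Tgfb2 between stages in 4 of 18 each), 84 lost and 7 gained a call, and none with a call changed sign. Bmp2 between stages was called in 5 of 18 alternatives, Gdf10 in 8 and Inhbb in 11. Against the whole newborn, Bmp2 and Id4 in adult bladder were called in 16 of 16. Signal over background limits Nog, Tgfb1 and Gdf11. No paired analysis was run, because whole bladders of adult and P1 mice come from different animals and form no pairs. The labels give no replicate numbers, and the numbers used here follow the order of the samples in the series.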
